A study of Homo sapiens with 6 samples.

Results

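The retained introns longer than 500 nt of NCI-H1975 cells were described here. NCI-H1975 is an established human lung adenocarcinoma cell line. The deposited retained intron table of rMATS held 3287 introns, and 941 of them were longer than 500 nt from the end of the exon before the intron to the start of the exon after it. A mean of at least 10 junction reads over the 6 libraries was also asked for, which left out 242 of these and kept 699 introns in 571 genes. They made up 26.98% of the 2591 introns of any length with that many reads. The shortest members were introns of NIT2 (502 nt) and PIP4P1 (503 nt), and the longest introns left out by length were those of EIF4G2 (494 nt) and ISYNA1 (493 nt). At the limit on reads, the lowest member had a mean of 10.2 reads and the highest long intron left out had 9.83. The limits on length and reads use no difference between the groups, but the class was chosen with earlier results of these data known.

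The 3 libraries of the SAM68 group came from cells transfected with the plasmid PCDNA3.1-SAM68, and the 3 control libraries from cells with the empty plasmid PCDNA3.1. Cells of both groups received 2 µg of plasmid per well with a lipid reagent, and RNA was taken after 48 h. SAM68 was therefore raised by transient transfection on top of the protein that the line itself makes, and all libraries come from this line. The skipped exon table of the same study held 16951876 to 19737729 junction reads per library, and the long introns 315193 to 366947. Reads at KHDRBS1, the gene of SAM68, were 318, 336 and 323 reads per 1000000 skipped exon junction reads (rpm) in control and 1260, 1289 and 1307 rpm in SAM68 libraries. The 6 values fall into separate ranges, and the log2 fold change was 1.98 with an SE of 0.0477 (limma, adjusted p = 9.68e-23). A larger share of cells with the plasmid and more RNA per cell cannot be told apart in bulk RNA. Of 10 epithelial markers, 2 had a value in the skipped exon table. KRT8, a keratin of simple epithelia, was at 531 rpm in control library 1 and between 235 and 259 rpm in the other 5 libraries. The called intron described below also depends on control library 1, and whether the KRT8 value has a part in it was not tested. NAPSA, an aspartic protease of the lung alveolus, lay between 0 and 0.939 rpm. Of 5 markers of fibroblasts, leukocytes and endothelium, DCN alone had a value, of at most 1.46 rpm.

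An intron is retained when a transcript is spliced at its other introns but keeps this sequence. Retained transcripts are often held in the nucleus, or are degraded once they are exported because the intron brings a premature stop codon, and several splicing factors limit their own expression in this way. SAM68 is an RNA-binding protein that attaches to A- and U-rich motifs such as UAAA and UUAA and affects the use of nearby splice sites. For each intron, rMATS counts reads over the 2 exon-intron junctions (inclusion reads) and reads over the spliced exon-exon junction (skipping reads). The percent spliced in (PSI) is the share of the inclusion form after both counts are divided by their effective lengths. The effective lengths were 260 nt for inclusion and 130 nt for skipping in all 699 introns, so length inside the class does not enter the PSI.

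The splice sites of the introns that the results below turn on are printed from the hg38 sequence, 5ʹ to 3ʹ on the transcript strand. Capitals mark the first 2 and the last 2 bases of the intron. The U2AF1L5 intron and the intron of its copy U2AF1 have the same letters at both ends, which bears on how their reads can be assigned. The RPS16 introns share their 3ʹ site and differ in the 5ʹ site. RACK1 and SMYD2 show the less common GC and AT starts.
U2AF1L5 and U2AF1, 3795 nt, 5ʹ site: gtttagccagGTttgtttgcctttttttca
U2AF1L5 and U2AF1, 3795 nt, 3ʹ site: aaagttgttgcgttttgtatttcAGaccat
SRSF5, 1215 nt, 5ʹ site: cagctggcagGTttgttgaaatacagtttt
SRSF5, 1215 nt, 3ʹ site: cttaacacaattatcttgtgttaAGgatct
RPL37A, 1309 nt, 5ʹ site: ggacgtacaaGTgagtctagttccttgtgg
RPS16, 1845 nt, 5ʹ site: acagtacaagGTgctgggatccggcaccgg
RPS16, 1896 nt, 5ʹ site: tctcatcaagGTgaacgggcggcccctgga
RACK1, 534 nt, 5ʹ site: atctcacaacGCaagtagctgctcacttag
SMYD2, 947 nt, 5ʹ site: cactataaatATatcctttacaactgccct
SMYD2, 947 nt, 3ʹ site: ggccctttccttgactccacagcACcccct

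Most of these long introns were removed from nearly all of the transcripts that were read. The median over the 699 introns of the mean PSI over 6 libraries was 1.31%, with quartiles of 0.376% and 6.23%. The mean PSI was at most 1% in 313 introns, above 1% and up to 10% in 239, above 10% and up to 50% in 60 and above 50% in 87. The length of the introns ranged from 502 to 6230 nt with a median of 947 nt, and 318 were longer than 1000 nt. PSI showed no steady course with length inside the class. The median PSI was 1.32% in the 247 introns of up to 750 nt and 1.28% in the 134 of up to 1000 nt. It was 1.33% in the 135 introns of over 1000 and up to 1500 nt and 1.11% in the 82 of up to 2000 nt. It was 1.53% in the 58 introns of over 2000 and up to 3000 nt and 1.49% in the 43 introns of over 3000 nt. The median GC content fell over these ranges, from 51.3% in the shortest to 38.8% in the longest, with 47.4% at over 1000 and up to 1500 nt.

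The levels of long introns lay far apart by their place in the canonical transcript of the gene in GENCODE 44. Of the 699 introns, 531 (76.0%) are spliced out in that transcript, and their median PSI was 0.760%. Only 23 of these 531 had a mean PSI above 10%. Another 55 introns have an end that lies inside a canonical exon, and their median PSI was 79.8%. The 30 introns that lie wholly inside a canonical exon had a median of 66.0%, and the 45 that hold a whole canonical exon had a median of 40.7%. The remaining 38 introns, with none of these relations, had a median of 12.9%. Of the 87 introns above 50%, 2 are spliced out in the canonical transcript. At an end that lies in a canonical exon, an inclusion read can come from the usual exon, so a high PSI there cannot be told apart from use of the canonical splice site. Among the 1505 shorter tested introns (up to 500 nt) that are spliced out in the canonical transcript, the median PSI was 0.758%, next to the 0.760% of the long ones.

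**Figure D1:**
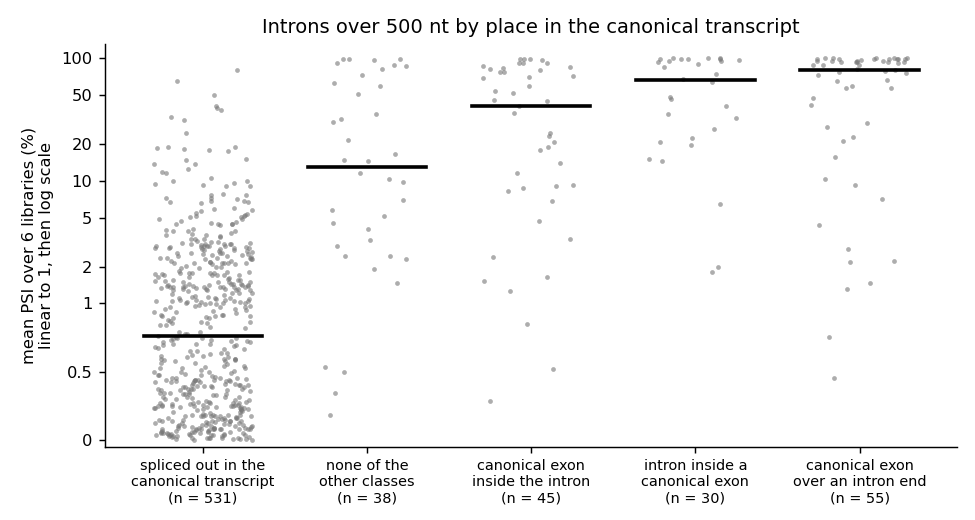
Mean PSI over the 6 libraries (vertical axis in percent, linear up to 1 and logarithmic above) of each of the 699 introns over 500 nt, grouped by their place in the canonical transcript, with 1 point per intron and a bar at the median. The 531 introns spliced out in the canonical transcript lie mostly below 5% with a median of 0.760%, and the 55 with an end inside a canonical exon have a median of 79.8%.

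Pairs of long introns of the same gene that share 1 end show this most directly. There were 76 such pairs in 58 genes, and the PSI of the partners differed by over 50 percentage points in 35 of them. The partner with the lower PSI was the canonical intron in 30 of the 35, and a canonical exon ran over an end of the other partner in 23. RPS16, a protein of the small ribosomal subunit, had a mean PSI of 0.0527% for the 1845 nt intron and 88.1% for the 1896 nt intron, whose 5ʹ site lies 51 nt upstream. RACK1, a scaffold protein of the small ribosomal subunit, gave 0.00925% at 534 nt and 99.8% at 610 nt, and both of these introns start with GC. For RPL28, of the large ribosomal subunit, the values were 0.0388% at 1236 nt and 99.9% at 1255 nt. MYL6, a myosin light chain, had 0.272% at 875 nt and 99.9% at 911 nt. Partners share reads at their common end and are not independent: 130 of the 699 introns overlap another of them.

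A small set of canonical introns had a higher PSI. They were chosen with their values in view, as the 23 canonical introns with a mean PSI above 10%, and in 3 of them, of FANCI, DZIP3 and CHCHD7, the mean of a group was at most 10%. OGT, the enzyme that adds O-GlcNAc to proteins, had a mean PSI of 24.5% in its 3271 nt intron 4 (chrX:71544636-71547906). NKTR, a cyclophilin with an arginine- and serine-rich domain, had 18.9% in intron 4 (536 nt) and 37.5% in intron 5 (1720 nt). ARGLU1, a splicing coactivator, had 18.8% in its 2300 nt intron 2, and NXF1, the main mRNA export receptor, had 17.3% in its 1801 nt intron 10. LMNA, which encodes lamins A and C, had 31.0% in its 744 nt intron 10 at a mean of 675 reads. A transcript whose exon runs over an end of this intron would also give inclusion reads, and its part was not tested. PRAME, a cancer-testis antigen, had 38.9% in the 635 nt intron 2 of its 5ʹ UTR. Exons of other transcripts lie inside the OGT intron (3), NKTR intron 5 (2) and the ARGLU1 and NXF1 introns (1 each). Reads over the ends of these introns may include such forms.

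The groups overlapped in 19 of the 23 introns, and all SAM68 values lay below all control values in the other 4, of OGT, UBXN11, ARL16 and ACAD11. Of all tested introns, 5.25% lay below in this way and 3.05% above. In 3 of the 23, 2 lower and 1 higher, the unadjusted p was under 0.05, beside 4.09% lower and 2.35% higher of all tested introns. The NXF1 intron was at 17.1%, 23.0% and 17.5% in control libraries and 11.2%, 13.4% and 21.6% in SAM68 libraries (unadjusted p = 0.238). The ARGLU1 intron was at 19.0%, 22.8% and 10.4% in control and 18.1%, 22.8% and 19.7% in SAM68 libraries (unadjusted p = 0.336). In both genes the 2 ranges overlap. The LMNA intron was at 31.6%, 27.4% and 27.9% in control and 30.01%, 33.3% and 35.6% in SAM68 libraries, a difference of 3.99 points (unadjusted p = 0.0503, adjusted p = 0.728). The OGT intron, in contrast, was at 24.7%, 29.2% and 27.8% in control and 20.5%, 21.8% and 23.0% in SAM68 libraries. All its SAM68 values lie below all control values, by a mean of 5.48 points, but the adjusted p was 0.813. The 3 introns with an unadjusted p under 0.05 were those of UBXN11, ARL16 and the readthrough gene RNASEK-C17orf49, each with an adjusted p of 0.728. ARL16, a small GTPase of the ARF-like family, had 17.0%, 14.6% and 18.7% in control and 13.2%, 12.9% and 11.6% in SAM68 libraries in its 863 nt intron 3, with no overlap. Exons of other transcripts lie inside the ARL16 intron too (2). The 784 nt intron of RNASEK-C17orf49 had 20%, 35.0% and 24.8% in control and 34.1%, 86.2% and 43.6% in SAM68 libraries, with overlap, and exons of RNASEK and C17orf49 overlap it. UBXN11, which holds a UBX domain, was at 22.2% to 30% in control and 9.38% to 13.04% in SAM68 libraries in its 981 nt intron 10.

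The typical PSI of a long intron was slightly lower in the SAM68 libraries. The median PSI over the 699 introns was 1.21%, 1.15% and 1.10% in control and 0.935%, 0.850% and 0.848% in SAM68 libraries. The 2 groups do not overlap, and their means were 1.15% ± 0.0545 and 0.877% ± 0.0496 (SD, n = 3), a difference of -0.275 points. Over all 2591 tested introns the medians were 1.05%, 1.02% and 1.02% in control and 0.828%, 0.799% and 0.879% in SAM68 libraries, so the lower medians were not particular to long introns. Introns of up to 150 nt gave 0.990%, 0.926% and 0.897% against 0.810%, 0.635% and 0.787%. In the 979 introns of over 150 and up to 500 nt, the SAM68 value of 1.05% reached into the control range of 1.02% to 1.18%. No p is given for these medians, since the class was chosen with earlier results of these data known.

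More long introns were without any inclusion read in the SAM68 libraries. The number of long introns with 0 inclusion reads was 173, 197 and 183 in control and 204, 216 and 203 in SAM68 libraries. The same count over all tested introns is not given here, so this is not shown to be particular to long introns. The median read count of a member was 82, 91 and 83 in control and 86, 75 and 76 in SAM68 libraries, so SAM68 libraries 2 and 3 were read less deeply, while SAM68 library 1, with 366947 reads, was the deepest of all 6. The pooled inclusion share of all member reads was 12.2%, 12.1% and 12.4% in control and 11.8%, 12.2% and 12.6% in SAM68 libraries, which overlap. With a mean of at least 50 reads asked for, 451 introns remained and the difference of the medians was -0.129 points. The part of read depth in the shift was not tested beyond this.

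Intron by intron, the direction of change was close to that of the whole table. PSI was lower in the SAM68 group in 392 of the 699 introns (56.1%), against 55.8% of all tested introns, and higher in 307, against 44.1%. At an unadjusted p under 0.05, 36 (5.15%) were lower and 12 (1.72%) higher, beside 4.09% and 2.35% of all tested introns. All SAM68 libraries lay below all control libraries in 49 introns (7.01%), beside 5.25% of all, and above them in 15 (2.15%), beside 3.05%. A mean change of at least 10 points was seen in 30 introns downward and 21 upward, beside 2.70% of all tested introns in each direction. Such a change together with an unadjusted p under 0.05 was found in 7 introns downward and 6 upward (0.858%), beside 0.695% and 0.772% of all tested introns. The median change over the 699 introns was -0.0634 points and over all tested introns -0.0469 points. For a single intron, the SD within a group had a median of 0.803 points in control and 0.680 in SAM68 libraries.

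An intron was called at an adjusted p under 0.05 (quasi-binomial test, Benjamini-Hochberg over all 2591 introns) together with a change of at least 10 points. This held for 1 of the 699 long introns (0.143%), beside 0.0386% of all tested introns, where it was also the single call. Without the limit on the size of the change, it was still the only long intron, beside 0.193% of all tested introns. All introns share a dispersion of 2.01 in this test, so an intron whose libraries differ more than this is tested against too small a spread.

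**Figure D2:**
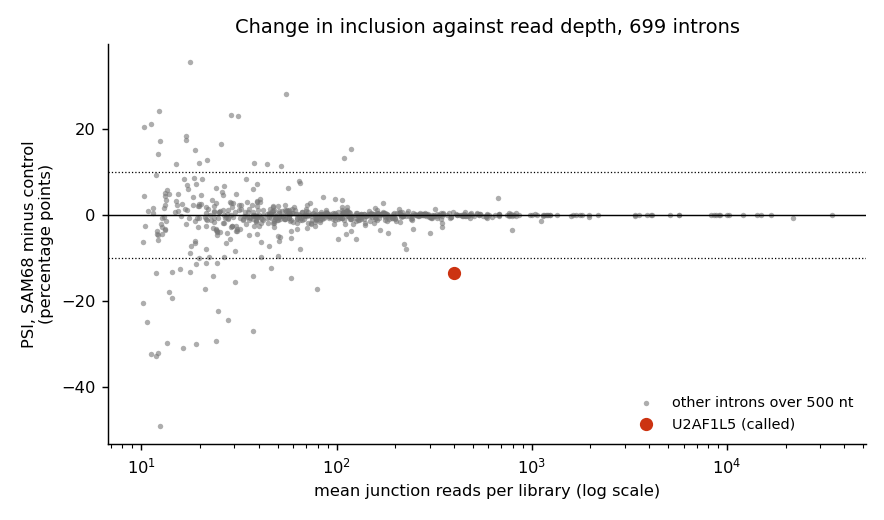
Difference in PSI, SAM68 minus control, in percentage points (vertical axis) against the mean junction reads per library (horizontal axis, log scale) for the 699 introns over 500 nt, with dotted lines at a change of 10 points and the called U2AF1L5 intron in red. Changes of over 10 points are found mostly among introns with few reads, and U2AF1L5 stands at -13.4 points and a mean of 402 reads.

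The called intron was the 3795 nt intron 2 of U2AF1L5 (chr21:6492198-6495992, minus strand), a copy of U2AF1, the gene of the U2AF subunit that recognises the AG at the 3ʹ end of introns. GENCODE 44 lists U2AF1L5 with the gene type artifact. Its inclusion reads were 18, 0 and 8 in control and 0, 5 and 1 in SAM68 libraries. Its skipping reads were 30, 11 and 19 in control and 4, 1226 and 1088 in SAM68 libraries. The spliced form was thus read mainly in SAM68 libraries 2 and 3. PSI was 23.1%, 0% and 17.4% in control and 0%, 0.204% and 0.0459% in SAM68 libraries, with means of 13.5% ± 12.02 and 0.0831% ± 0.107 (SD, n = 3). The change was -13.4 points with an adjusted p of 5.51e-15 in the quasi-binomial test, but the groups overlap at 0% and the exact permutation test over the 6 libraries gave p = 0.4, where 0.1 is the smallest it can give.

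The zeros of this intron rest on few reads. Control library 2 had 0 inclusion reads of 11, for which the limit of 3 reads is a share of 27.3% of its reads or a PSI of 15.8%, and SAM68 library 1 had 0 of 4, for which the limit is 75% of its reads or a PSI of 60%. In control library 1 the 18 of 48 reads (37.5% of its reads) had a Wilson 95% interval of 25.2% to 51.6%. These limits and intervals cover counting error only. Without control library 1 the change was -8.61 points, below the limit of 10 points. The adjusted p was 0.860 when each intron kept its own dispersion and 0.776 when logit PSI was tested with limma.

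The intron of U2AF1L5 is nearly the same as that of U2AF1 (chr21:43100520-43104314), with 3794 of 3795 bases identical. A read from one copy can thus be placed at the other, and a read that fits both may be counted at neither. At the U2AF1 intron the inclusion reads were 1, 0 and 0 in control and 6, 0 and 1 in SAM68 libraries, and the skipping reads were 10, 1 and 8 in control and 684, 0 and 1 in SAM68 libraries. Reads of the spliced form were thus listed at U2AF1 in SAM68 library 1 and at U2AF1L5 in SAM68 libraries 2 and 3. On its own the U2AF1 intron differed by 15.3 points in the other direction, with no read in SAM68 library 2 (adjusted p = 0.844). That difference rests on SAM68 library 3, with 1 inclusion read of 2 (PSI 33.3%), while SAM68 library 1 had 0.437%. Control libraries held 11, 1 and 8 reads there, and the intron met the limit on reads through the 690 of SAM68 library 1. With the reads of both copies summed, PSI was 19.2%, 0% and 12.9% in control and 0.434%, 0.204% and 0.0917% in SAM68 libraries. The change was -10.5 points (adjusted p = 8.10e-14 in the quasi-binomial test), and the exact permutation p was again 0.4. The adjusted p was 0.860 when each intron kept its own dispersion and 0.477 when logit PSI was tested with limma. Without control library 1 the summed change was -6.21 points, and without control library 3 it was -9.35 points.

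**Figure D3:**
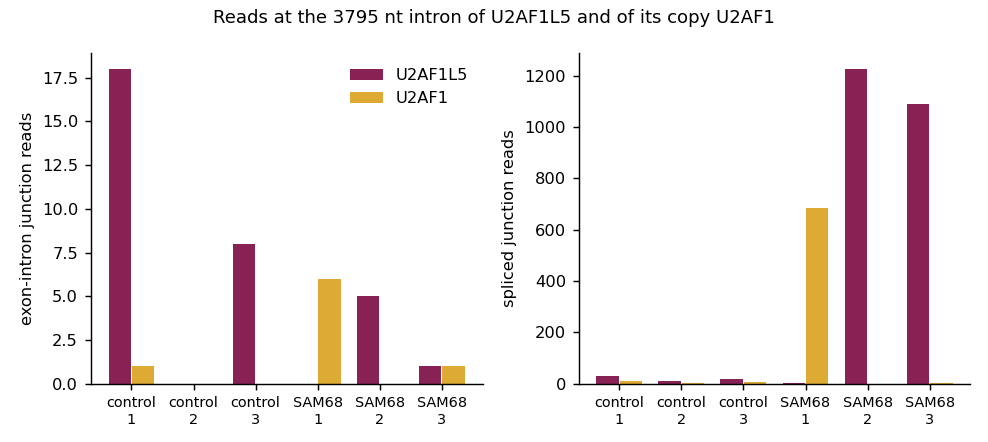
Inclusion reads over the exon-intron junctions (left) and spliced junction reads (right) of the 3795 nt intron at U2AF1L5 and at its copy U2AF1, as bars from 0 for each of the 3 control and 3 SAM68 libraries. The spliced reads are high at U2AF1 in SAM68 library 1 (684) and at U2AF1L5 in SAM68 libraries 2 and 3 (1226 and 1088), and control libraries hold at most 30.

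At other junctions the SAM68 libraries divided between the copies as at the intron, while the control libraries had more reads at U2AF1 than at U2AF1L5 in libraries 1 and 2, unlike at the intron. At the skipped exon event with the most reads of each gene, U2AF1 had 39.1, 9.27 and 1.54 rpm in control and 149, 0.375 and 0.188 rpm in SAM68 libraries, and U2AF1L5 had 5.29, 1.95 and 3.93 rpm in control and 0.808, 256 and 242 rpm in SAM68 libraries. Summed over both, the listed reads were 44.4, 11.2 and 5.47 rpm in control and 150, 257 and 242 rpm in SAM68 libraries. These sums leave out any read counted at neither copy, so they may not give the level of the gene, which was not tested. The summed ranges are separate, with means of 20.4 ± 21.0 and 216 ± 58.1 rpm (SD, n = 3) and an exact permutation p of 0.1, the smallest possible. Tested alone with limma, U2AF1L5 had a log2 fold change of 3.45 (adjusted p = 0.110) and U2AF1 of -1.04 (adjusted p = 0.755).

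Below the call, the smallest adjusted p-values belonged to SRSF5 and RPL37A. SRSF5 is an SR protein, of the family that binds exons and favours their splicing. Its 1215 nt intron 5 of 7 (chr14:69769252-69770466, plus strand), whose splice sites are printed above, had a PSI of 11.4%, 11.2% and 12.3% in control and 8.85%, 8.31% and 7.58% in SAM68 libraries, at a mean of 797 reads. All SAM68 values lie below all control values, by 3.41 points (adjusted p = 0.128, quasi-binomial test). Junction reads at the gene gave a log2 fold change of -0.01 (SE 0.0642, adjusted p = 0.960, limma). GENCODE places 3 exons of other transcripts inside this intron, so reads over its ends may include such forms.

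RPL37A is a protein of the large ribosomal subunit. Its 1309 nt intron 3 of 3 (chr2:216500032-216501340, plus strand) was retained in a very small share of transcripts, with a PSI of 0.0756%, 0.0690% and 0.106% in control and 0.0257%, 0.0266% and 0.0326% in SAM68 libraries. The groups do not overlap (adjusted p = 0.137), and the values rest on 21, 20 and 30 inclusion reads in control against 8, 7 and 9 in SAM68 libraries. No annotated exon lies inside this intron.

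BRAT1, a protein that binds BRCA1 and ATM, had a PSI of 5.91%, 6.20% and 5.03% in control and 2.80%, 1.88% and 2.59% in SAM68 libraries in its 1090 nt intron 10. FBXO9, a substrate receptor of a ubiquitin ligase, had 6.67%, 3.12% and 4.04% in control and 0.840%, 1.64% and 1.12% in SAM68 libraries in its 641 nt intron 9. AP5Z1, a subunit of the adaptor complex AP-5, had 2.38%, 6.98% and 0.917% in control and 0%, 0.671% and 0.800% in SAM68 libraries in its 529 nt intron 14. In all 3 genes every SAM68 value lies below every control value, and the adjusted p-values were 0.352, 0.352 and 0.673. The 0 in AP5Z1 was read among 95 reads, where the limit of 3 reads is a PSI of 1.604%, so this 0 cannot be told apart from the lowest control value at this depth. The junction reads of BRAT1, FBXO9 and AP5Z1 themselves differed by 0.11, 0.13 and -0.03 on the log2 scale, with adjusted p-values (limma) of 0.689, 0.686 and 0.958.

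In PRPF4B and SMPD4, the values were higher in the SAM68 libraries. PRPF4B is a kinase of the spliceosome, and its 600 nt intron 12 had 0 inclusion reads of 117, 139 and 98 in the control libraries, which allows a PSI of up to 1.30%, 1.09% and 1.55%. In SAM68 libraries it had 9, 1 and 3 inclusion reads and a PSI of 3.16%, 0.565% and 1.78% (adjusted p = 0.352). The SAM68 values are thus all above 0, but 2 of them rest on at most 3 reads, and that of library 2 lies below all of these limits. Junction reads of PRPF4B were 35.6, 27.97 and 41.9 rpm in control and 18.7, 24.97 and 23.9 rpm in SAM68 libraries, a log2 fold change of -0.62 (SE 0.160, adjusted p = 0.0682, limma). SMPD4, a neutral sphingomyelinase, had 0.477%, 0% and 0.554% in control and 1.49%, 1.61% and 1.89% in SAM68 libraries in its 613 nt intron 15 (adjusted p = 0.407). PFDN5, a subunit of the chaperone prefoldin, had 100% in 5 libraries and 50.9% in control library 2 in a 1382 nt intron, so its p of 0.00409 rests on that library.

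Genes of RNA-binding proteins held 18 of the long introns, and 15 of these had a lower PSI in the SAM68 group. The median change in this list (hnRNP proteins, RBM proteins and similar factors) was -0.673 points, against -0.0634 points over the 699 introns, while its median PSI was 4.84%, against 1.31% over the 699 introns. At an unadjusted p under 0.05, 4 were lower and 0 higher, and none passed after adjustment. Of all tested introns, 55.8% had a lower PSI and 4.09% were lower at an unadjusted p under 0.05, and the list was not tested against them. DDX5 is an RNA helicase that takes part in splicing and miRNA processing. Its 1236 nt intron 11, which holds the miRNA genes MIR3064 and MIR5047, had 5.67%, 4.30% and 5.39% in control and 4.05%, 4.08% and 3.18% in SAM68 libraries, with no overlap (unadjusted p = 0.0138, adjusted p = 0.728). This intron also holds 3 annotated exons, so reads over its ends may include such forms. NONO, a paraspeckle protein, had 2.32%, 1.90% and 1.75% in control and 1.48%, 1.71% and 1.42% in SAM68 libraries in its 530 nt intron 9, also with no overlap (adjusted p = 0.728).

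The next values are of genes chosen after their values were seen, as the other 3 of the 4. RBM25, which binds the U1 snRNP, had 7.61%, 9.50% and 10.9% in control and 4.55%, 5.11% and 5.53% in SAM68 libraries in its 3441 nt intron 9. RBM39, a U2AF-like splicing factor, had 10.2%, 5.67% and 4.16% in control and 2.87%, 2.67% and 5.88% in SAM68 libraries in its 1806 nt intron 2. The groups are separate in RBM25 and overlap in RBM39. DDX17, the paralog of DDX5, had 6.40%, 7.20% and 5.52% in control and 3.81%, 4% and 5.46% in SAM68 libraries in its 3940 nt intron 11, without overlap. HNRNPU, a protein of the nuclear matrix, named for its read depth, had 0.361%, 0.347% and 0.253% in control and 0.0865%, 0.309% and 0.0342% in SAM68 libraries in a 1986 nt intron (adjusted p = 0.728).

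SR proteins and their partners held 9 of the introns, of which 5 were lower and 4 higher. At an unadjusted p under 0.05, 2 were lower and 0 higher, beside 4.09% and 2.35% of all tested introns. These are the SRSF5 intron and a 720 nt intron of PNISR, a protein with an arginine- and serine-rich region, which was named after its values were seen and had 10.5%, 11.1% and 16.4% in control and 5.52%, 7.602% and 8.05% in SAM68 libraries (unadjusted p = 0.0421, adjusted p = 0.728). The widest change in the list was -17.2 points in a 759 nt intron of SRSF1 that a canonical exon overlaps at an end. Its PSI was 82.6%, 87.1% and 28.2% in control and 47.8%, 52.4% and 46.2% in SAM68 libraries at a mean of 21.2 reads, and the groups overlap (adjusted p = 0.844). Next to SRSF5, the 888 nt intron of SRSF4 had at most 0.783% in any library, and the 875 nt intron of SRSF7, which is annotated as part of a transcript subject to nonsense-mediated decay, had 1.06% to 1.79% in control and 0.674% to 1.22% in SAM68 libraries (adjusted p = 0.844). The kinases of SR proteins held 3 introns. CLK1 and CLK3 phosphorylate SR proteins, and their introns of 732 and 1894 nt had at most 1.43% and 1.23%. A further CLK1 intron of 1491 nt, chosen after its values were seen, had 54.3%, 44.7% and 90.9% in control and 30%, 66.7% and 26.3% in SAM68 libraries at a mean of 24.7 reads. The groups overlap there (adjusted p = 0.755).

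The spliceosome list held 11 introns, 8 lower and 3 higher, and contains the called U2AF1L5 intron. U2AF1L4, a relative of U2AF1, had 3.07%, 1.89% and 1.49% in control and 1.96%, 1.44% and 0.358% in SAM68 libraries in its 1005 nt last intron, with overlap (adjusted p = 0.844). SNRNP25, of the minor spliceosome, had at most 0.446% in a 656 nt intron. In the list of O-GlcNAc cycling and S-adenosylmethionine synthesis, the OGT intron described above was joined by a 1358 nt intron of MAT2B, a regulatory subunit of methionine adenosyltransferase, with a single inclusion read over all 6 libraries. Genes of nonsense-mediated decay held none of the long introns with enough reads.

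Ribosomal protein genes held 29 of the introns in 22 genes, and 18 were lower and 11 higher with a median change of -0.00696 points. Their 17 canonical introns had a median PSI of 0.0388%, against 0.760% over all canonical long introns. The introns with the most reads came from here. The 1845 nt intron of RPS16 (chr19:39433762-39435606) had a mean of 34554 reads and a PSI of 0.0518%, 0.0568% and 0.0709% in control and 0.0451%, 0.0429% and 0.0487% in SAM68 libraries, where all SAM68 values are lower (adjusted p = 0.813). RPLP1, of the ribosomal stalk, had 0.0322% to 0.0492% in control and 0.0210% to 0.0726% in SAM68 libraries in its 1448 nt intron, and RPS27A had 0.00409% to 0.0187% in control and 0.0182% to 0.0193% in SAM68 libraries in its 626 nt intron. RPS15 and RPL10 had 2 inclusion reads each in all, both in a control library, at means of 16864 and 10253 reads.

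The other lists held few introns, and none was called. Of 5 introns in snoRNA host genes, 2 were lower and 3 higher. SNHG5, whose 505 nt intron lies inside a canonical exon, had 32.1%, 42.2% and 41.9% in control and 30.7%, 33.1% and 28.7% in SAM68 libraries (unadjusted p = 0.0259, adjusted p = 0.728), with overlap. The 524 nt intron of GAS5 had 0.981% to 1.93% in control and 1.17% to 1.65% in SAM68 libraries, and the 578 nt intron of SNHG12, which holds SNORA44, at most 1.69%. Chromatin enzymes held 11 introns, 2 lower and 9 higher, with a median change of 0.279 points and 0 at an unadjusted p under 0.05 in either direction. HDAC7, a histone deacetylase, was at 2.15% to 4.25% in control and 1.86% to 2.82% in SAM68 libraries in a 1169 nt intron. EHMT1, a histone methyltransferase, reached 1.80% in a 534 nt intron and BRD2, which binds acetylated histones, 0.162% in a 505 nt intron.

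Aminoacyl-tRNA synthetases and initiation factors held 11 introns, 4 lower and 7 higher. Among them the EIF3B intron of 692 nt had 0.981% to 2.42% in control and 1.52% to 3.18% in SAM68 libraries, the EIF3M intron of 964 nt 0.403% to 0.891% and 0.260% to 0.410%, and the EIF4A2 intron of 1186 nt, which holds SNORD2, at most 0.876%. Both zinc finger gene introns, of ZNF76 (561 nt) and ZNF333 (567 nt), were lower in the SAM68 group, by 1.6 and 6.27 points, with adjusted p-values of 0.806 and 0.813. ZNF333 was read at a mean of 10.2 reads only, with 1, 0 and 2 inclusion reads in control and 0, 0 and 0 in SAM68 libraries. Of the enzymes of glycolysis, PFKL had at most 1.75% in a 668 nt intron, and GAPDH had 100% in 5 libraries and 75% in control library 1 in a 573 nt intron that holds a canonical exon, at a mean of 16.5 reads. The mTOR pathway introns of AKT1 (1517 nt), AKT2 (1583 nt) and TSC2 (1057 nt) had at most 0.803%, 0.629% and 1.61%.

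The 5 longest introns were, besides their length, among those with few inclusion reads. PLEKHA1, which encodes a phosphoinositide-binding protein, has the longest, of 6230 nt (chr10:122417969-122424198), with 0%, 6.17% and 2.50% in control and 5.41%, 5.26% and 4% in SAM68 libraries. The groups overlap, and the adjusted p was 0.864. The introns of CYB5A (5139 nt), the potassium channel gene KCNMA1 (4839 nt), SGCE (4804 nt) and MMS22L (4423 nt) had at most 0.817%, 1.41%, 0.315% and 1.41% in any library, from at most 3 inclusion reads per library. At the other end, with a mean of at least 50 reads, the 6 introns of highest PSI, taking 1 per gene, were those of RPL28 (1255 nt), MYL6 (911 nt), RACK1 (610 nt), STX16 (658 nt), THRAP3 (642 nt) and WDR45 (1134 nt), each at 97.5% or more in all libraries. All 6 have an end in, or lie inside, a canonical exon.

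The sequence of the 699 introns and what they contain were set beside those of the shorter tested introns, without a test. The GC content had a median of 48.2% (quartiles 39.0% and 56.8%), against 56.6% in introns of over 150 and up to 500 nt and 62.0% in introns of up to 150 nt. An annotated exon lay wholly inside 239 of them (34.2%), against 4.55% of the other tested introns. A small RNA gene lay inside 18 (2.58%), against 2.33%, among them SNORD96A in RACK1 and SNORA70 in RPL10. An exon of another gene overlapped 75 (10.7%), against 8.35%, so that reads there may belong to that gene. GENCODE has a transcript of the retained intron type over 573 of the 699 (82.0%), the same share as among the others, and a transcript subject to nonsense-mediated decay over 78 (11.2%), against 12.1%.

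Of the 699 introns, 586 (83.8%) lie in the coding region, 31 in the 5ʹ UTR and 27 in the 3ʹ UTR. Reading on from the exon before, 580 of the 586 coding introns (99%) meet an in-frame stop codon, against 75.5% of the shorter coding introns. The first in-frame stop lay at a median of base 48 of the intron. The splice sites were GT-AG in 690 introns (98.7%), GC-AG in 8 and AT-AC in 1. The AT-AC intron is that of SMYD2, a lysine methyltransferase, with a mean PSI of 0.219%, and the 1001 nt intron of the ubiquitin-conjugating enzyme UBE2D3, which starts with GC, had 1.45%.

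Motifs of SAM68 were searched as the letters UUAA and UAAA on the transcript strand alone, in the first and the last 100 bases of each intron. A stretch such as UUAAA holds both, so the 2 searches overlap. UUAA was found in the first 100 bases of 230 long introns (32.9%) and in the last 100 bases of 258 (36.9%), against 15.4% and 18.9% of the 1342 other tested introns of at least 100 nt. UAAA was found in 29.6% and 32.0%, against 19.4% and 17.2%. UAGGG, a motif of hnRNP A1, was found in 7.15% and 6.44%, against 11.3% and 7.97%. The lower GC content of the long introns goes along with these shares, and its part was not tested.

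Introns with and without these letters were then set side by side in their change. The median change was -0.110 points in the 230 introns with UUAA in the first 100 bases and -0.0574 points in the 469 without. For UAAA in the first 100 bases the medians were -0.139 points in 207 introns and -0.0472 points in 492. In the last 100 bases they were -0.0660 points in 258 introns with UUAA and -0.0632 points in 441 without, and -0.0567 points in 224 with UAAA and -0.0671 points in 475 without. For UAGGG they were -0.0819 points in 50 introns with it in the first 100 bases and -0.0634 points in 649 without, and -0.265 points in 45 with it in the last 100 bases and -0.0555 points in 654 without, the widest gap of the 6 comparisons. These are descriptions without a test. Of the 8 introns named above for their small p-values, 5 hold UUAA in the first 100 bases, beside 32.9% of the 699. The introns of BRAT1, AP5Z1 and PFDN5 do not. Of these 5, the introns of SRSF5, RPL37A and FBXO9 were lower in SAM68 libraries and those of PRPF4B and SMPD4 higher. In SRSF5, RPL37A, FBXO9 and PRPF4B, 4 of these 5, the UUAA nearest the 5ʹ end starts at base 42, 82, 54 and 10 of the intron and is shown in capitals in the DNA letters of hg38.
SRSF5, 1215 nt: ttgatgtggctttTTAAaaaagttaatggg
RPL37A, 1309 nt: ggatgggctagttTTAAcactttctcagga
FBXO9, 641 nt: ctccatgtattagTTAAatggacatctgtt
PRPF4B, 600 nt: gtaagtttcTTAAtgttctttgacct

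The genes that hold the long introns were also compared by their junction reads, a measure that the choice of the introns did not use. Of the 571 genes, 559 had enough skipped exon reads to be tested, and 0 met an adjusted p under 0.05 together with a log2 fold change of 1 or more in size (limma), beside 0.0506% of the 9872 tested genes. At an unadjusted p under 0.05 there were 81 (14.5%), beside 11.9% of all tested genes. The median log2 fold change was -0.04 for these genes and -0.03 for all genes. At an adjusted p under 0.05 alone, 4 of the 559 passed (0.716%), beside 0.466%.

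These were TPR, RPL19, RPLP1 and SNHG5. TPR, a filament protein of the nuclear pore basket, had 35.3, 45.5 and 42.6 rpm in control and 21.97, 21.4 and 31.0 rpm in SAM68 libraries, a log2 fold change of -0.73 (SE 0.151, adjusted p = 0.0237). RPL19 was higher, with a log2 fold change of 0.18 (SE 0.0352, adjusted p = 0.0216), and RPLP1 and SNHG5 were lower, by -0.20 (SE 0.0445, adjusted p = 0.0375) and -0.21 (SE 0.0443, adjusted p = 0.0237). The long introns of TPR, RPL19 and RPLP1 had a PSI of at most 1.195%, 0.0167% and 0.0726% in any library, and none of these introns was called.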

How the data were processed

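RNA of 3 control and 3 SAM68 libraries was sequenced by the authors as paired-end reads. Per the submitters' processing notes, CASAVA 1.4, fastp 0.20.0 and HISAT2 2.1.0 were used with GRCh38, and rMATS listed the events. The authors deposited 1 table per event type. Its cells hold lists of 3 raw junction read counts per group, the inclusion level of each library as a fraction, and effective lengths, with no replicate numbers. Columns with the authors' own p-value, FDR and difference of inclusion levels were not used. The list given first was taken as control, because the study's plot of PKM assigns its values so. Values recomputed from the deposited counts differ from the listed levels by at most 0.0005.

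The members, gene lists and tests were chosen with earlier results of these data known. The 2591 introns averaging 10 reads or more entered a quasi-binomial model with group as its term, with the Pearson dispersion moderated over all of them in R 4.3.3 (limma 3.58.1, squeezeVar) with a floor of 1, an F test and Benjamini-Hochberg adjustment. The prior degrees of freedom were infinite. A call needed an adjusted p under 0.05 and a change of at least 10 percentage points. Changes are SAM68 minus control. Single values were compared with two-sided exact permutation tests, whose smallest p is 0.1. For genes, the skipped exon event with the most reads stood for each gene, reads were divided by the library total, and log2(rpm + 0.5) was compared by limma (eBayes, trended prior) for the 9872 genes that averaged 10 reads or more. A fold change on this scale understates that of low genes. A count model had been planned for genes and as an alternative for introns and was left out by choice. Both tests were also run on simulated data, with outcomes not given here. The simulated introns shared the dispersion of the test, so this cannot show its errors where libraries differ more.

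Introns were placed with GENCODE 44 on hg38, and sequence was read from hg38. Zero counts were given the limit of 3 reads, and Wilson intervals are at 95%. Reads carry no molecular identifiers. Named introns are the called one, the 8 of smallest p among the rest with a mean of at least 20 reads, the 6 with the most reads, the 5 longest, the 6 of highest PSI among those with 50 reads or more on average, and the 3 with the most reads in each gene list, with 1 intron per gene in each of these choices but the call and the 5 longest. Other names were chosen after their values were seen. Alternatives for the test, filters, scaling and libraries were tried.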

Additional observations from a re-analysis of the deposited data

How the results depend on the processing

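No paired analysis was possible because the deposited lists carry no replicate numbers, and a library's number here is its place in the list. The single call among long introns fell to 0 with a dispersion of its own for each intron or when logit PSI was tested with limma, and rose to 9 with a likelihood ratio test on pooled counts, which ignores the spread between libraries. For all tested introns these counts were 0, 0 and 25, and 5 without a limit on the change. Leaving out 1 library gave 0 to 1 calls among long introns and 0 to 2 among all. The U2AF1L5 change of -13.4 points had an adjusted p of 0.860 with its own dispersion and 0.776 with limma on the logit, and ranged from -20.2 to -8.61 points with a library left out. For both copies summed, -10.5 points had 0.860 and 0.477, and ranged from -15.8 to -6.21. Without control library 1 both fall below 10 points, and without control library 3 the summed change does too (-9.35). The cause was not tested.

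The difference in the median PSI of long introns was -0.275 points, -0.538 as a plain share of reads, -0.129 with at least 50 reads, and -0.175 over the canonical introns alone, an alternative added after the data were seen. The groups stayed separate in each. Host genes called ranged from 0 to 1 with a library left out, the 1 being U2AF1L5 without SAM68 library 1. Of 510 settings of the 51 other named introns, 481 kept direction and side of the threshold, and 11, each of a different intron and uncalled, gave a difference of 0. PFDN5 (16.4 points) passed with the likelihood ratio test. The sign turned with a library left out, from never called values, in BRD2 (-0.0497 to 0.0539 points), GAS5 (-0.263 to 0.212), KCNMA1 (-0.366 to 0.469), RACK1 (-0.105 to 0.0866), RPLP1 (-0.00875 to 0.0170), SGCE (-0.0799 to 0.105) and WDR45 (-0.833 to 0.641). The planned edgeR interaction test and the DESeq2 Wald test were left out by choice and not run. At this depth, 173 to 216 long introns had 0 inclusion reads in a library.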

Other observations

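Of the long introns with a change of at least 10 points and an unadjusted p under 0.05 (7 lower and 6 higher in SAM68 libraries), 3 further ones, chosen after their values were seen, are given here. The first is PIGO, a glycosylphosphatidylinositol anchor enzyme, whose 1251 nt intron inside a canonical exon had 57.1%, 57.4% and 49.3% in control and 37.97%, 37.5% and 36.6% in SAM68 libraries (adjusted p = 0.728). VIM, the intermediate filament protein of mesenchymal cells, had 93.1%, 84.6% and 90.9% in control and 56.8%, 65.9% and 72.7% in SAM68 libraries in a 904 nt intron that holds a canonical exon, at a mean of 27.8 reads (adjusted p = 0.728). SUGP2, a protein with an arginine- and serine-rich region, was higher in SAM68 libraries 1 and 3, with 13.04%, 28.9% and 20.8% in control and 49.0%, 27.3% and 55.6% in SAM68 libraries (adjusted p = 0.681). The groups are separate in PIGO and VIM and overlap in SUGP2.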
